A study of Mus musculus with 10 samples.

Results

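Transcripts of hepatocytes, the parenchymal cells of the liver, were followed in an isolate of liver sinusoidal endothelial cells. The members were 35 genes named by symbol: 10 pericentral, 10 periportal and 15 unzoned hepatocyte genes. A named probe set was found for 33 of them, 10 pericentral, 8 periportal and 15 unzoned, among 24704 genes measured. Sds and Gls2, both periportal, had no named probe set here. The CDAA group comprised 5 arrays of cells from mice fed a CDAA diet for 10 weeks, with 31% of calories as fat and 1% cholesterol. The Std group comprised 5 arrays from mice given a control diet for those weeks. All mice were female C57BL/6N without a stated transgene, were 10 weeks old when feeding began, and were pooled 3 to an array. Non-parenchymal cells were taken from a density gradient and then bound by CD146 beads. The series' design text speaks of Gata4 knockout mice, but no label of these 10 samples does. A characteristics field gives the diet as 10 days, where titles and growth protocol say weeks. Nothing but the pools is stated to be independent, so the p-values rest on how much pools of 3 mice differ.

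Hepatocytes divide their work along the blood stream from portal vein to central vein. Periportal cells carry out urea synthesis and gluconeogenesis, whereas pericentral cells express glutamine synthetase and many cytochrome P450 enzymes. The pericentral programme depends on Wnt signals, of which central vein endothelium is a source. Plasma proteins such as albumin are made throughout the lobule, although many of their transcripts are graded too.

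Values are log2 signals after robust multi-array averaging (RMA), and a change is the log2 signal with CDAA less that with Std. The median signal of each array was 3.89, and no detection call was used, so signals under it are not known to lie above background. The defining markers of the labelled cell type were present in both groups: the 6 sinusoidal endothelial markers averaged 11.23 to 12.16 in CDAA arrays and 12.39 to 12.52 in Std arrays. All 3 defining hepatocyte markers, Alb, Cyp2e1 and Ass1, also gave signal above the array median in all Std arrays. Bulk signal cannot tell fewer hepatocytes, or less hepatocyte material, from less RNA of a gene per hepatocyte. Changes were tested with limma over all 24704 genes, and "rose" and "fell" are used of genes with a Benjamini-Hochberg adjusted p under 0.05.

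Hepatocyte transcripts did not move as a block. Of the 33 members, 8 rose and 6 fell, and 19 did not pass the test. Members thus passed at 42.4%, 24.2% rising and 18.2% falling. Of all genes 16.6% passed, 7.49% rising and 9.13% falling. That share includes many dim genes: 10531 of the 24704 lay under the array median on all arrays, against 2 of the 33 members. With genes of below-median mean signal left out of the fit, 4341 of 12352 genes passed, 1841 rising and 2500 falling. In that fit 4 of 8 pericentral, 2 of 6 periportal and 7 of 15 unzoned members passed. Among members, 4 pericentral genes, the periportal Ass1 and the plasma protein gene Apoh fell. Rises were those of Alb, Ttr, Trf, Ahsg, Hnf4a and Cebpa among unzoned genes, of the periportal Hsd17b13 and of the pericentral Rgn. The arrays of the diets did not overlap for 11 members, 7 with CDAA higher and 4 with CDAA lower. Over all genes 13.9% did not overlap, 6.16% with CDAA higher and 7.73% with CDAA lower.

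**Figure D1:**
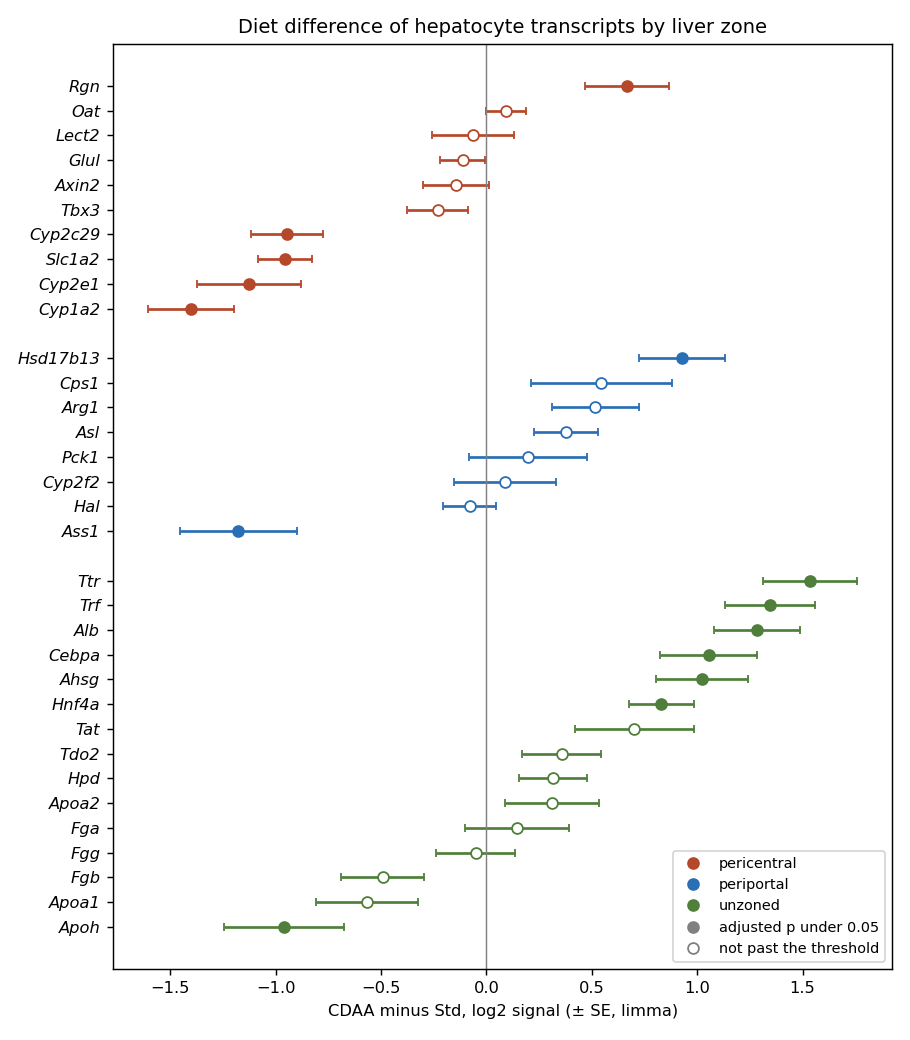
Change in log2 signal, CDAA minus Std (x axis), of the 33 measured members, with limma standard errors. Colours mark the zone lists and filled points an adjusted p under 0.05. In the pericentral list the 4 filled points on the left lie between -1.40 and -0.95, and in the unzoned list 6 filled points lie between 0.83 and 1.54.

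Promoter sequences are shown for members that moved in opposite directions: Alb and Ahsg, which rose, and Cyp2e1 and Cyp1a2, which fell. Each is the stretch of 250 bases before the annotated start, from RefSeq on build GRCm38.p6, written 5′ to 3′ on the gene's strand. Alb lies at chr5:90460620-90460869 (+ strand), Ahsg at chr16:22891765-22892014 (+), Cyp2e1 at chr7:140763569-140763818 (+) and Cyp1a2 at chr9:57683656-57683905 (- strand). Capitals mark matches on either strand to 5 short motifs: TATAAA (the TATA box), GTTAAT (HNF1 core), CAAAGTC (HNF4 core), TTNNGNAA (C/EBP) and CTTTGAT (TCF/LEF core, bound by nuclear factors of Wnt signalling).
Alb: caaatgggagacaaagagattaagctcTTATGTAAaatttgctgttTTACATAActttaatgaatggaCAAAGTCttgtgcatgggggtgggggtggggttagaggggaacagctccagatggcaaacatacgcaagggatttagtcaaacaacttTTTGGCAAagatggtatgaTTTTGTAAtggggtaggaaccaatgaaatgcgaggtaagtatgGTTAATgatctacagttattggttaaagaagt
Ahsg: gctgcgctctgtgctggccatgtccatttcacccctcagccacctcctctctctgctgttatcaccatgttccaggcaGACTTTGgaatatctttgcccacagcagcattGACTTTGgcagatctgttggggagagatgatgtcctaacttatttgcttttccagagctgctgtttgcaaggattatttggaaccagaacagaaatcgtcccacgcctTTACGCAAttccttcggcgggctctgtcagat
Cyp2e1: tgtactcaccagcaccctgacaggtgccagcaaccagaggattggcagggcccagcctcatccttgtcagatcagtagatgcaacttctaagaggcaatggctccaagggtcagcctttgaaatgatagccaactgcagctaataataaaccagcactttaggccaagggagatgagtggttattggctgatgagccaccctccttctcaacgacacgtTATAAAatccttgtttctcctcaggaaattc
Cyp1a2: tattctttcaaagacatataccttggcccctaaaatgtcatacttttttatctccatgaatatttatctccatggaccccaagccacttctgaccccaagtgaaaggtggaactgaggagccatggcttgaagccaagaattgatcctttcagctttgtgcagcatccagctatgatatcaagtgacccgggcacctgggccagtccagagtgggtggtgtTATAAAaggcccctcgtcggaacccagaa
The Alb window held 6 matches: 4 to the C/EBP motif, 1 to the HNF4 core and 1 to the HNF1 core. In Ahsg there were 2 matches to the HNF4 core and 1 place that fits the C/EBP motif on both strands, at 32 to 25 bases before the start. Cyp2e1 and Cyp1a2 each held a TATA box, at 31 to 26 and 29 to 24 bases before the start, and no match to the other motifs. A window was available for 26 of the 33 measured members, 5 that rose, 6 that fell and 15 that did not pass. The HNF4 core occurred in 3 of these 5 (Hsd17b13, Alb and Ahsg), in 1 of these 6 (Cyp2c29), in 0 of these 15 and in 3.84% of all 32851 windows. The HNF1 core was found in 2 of the 5 (Alb and Hnf4a), in 0 of the 6, in 4 of the 15 (Lect2, Pck1, Fga and Fgb) and in 6.43% of all windows. For the C/EBP motif the numbers were 4 of 5, 3 of 6, 8 of 15 and 36.8%, and for the TATA box 1 of 5, 3 of 6, 3 of 15 and 12.4%. The TCF/LEF core was present in 0 of 5, in 2 of 6 (Cyp2c29 and Slc1a2), in 2 of 15 (Lect2 and Hal) and in 3.21% of all windows. These matches describe the letters in the windows and not bound sites.

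Of the 10 pericentral genes 4 fell with CDAA, 3 P450 enzymes and a glutamate transporter. Cyp2e1 (probe set 13106_at), a P450 that oxidises ethanol and other small molecules, had log2 signals of 6.73, 6.50, 7.48, 5.98 and 6.74 in CDAA 1 to 5, against 8.05, 8.15, 7.39, 8.01 and 7.46 in Std 1 to 5. CDAA 3 alone reached into the range of Std. The means were 6.69 ± 0.54 with CDAA and 7.81 ± 0.36 with Std (SD, n = 5 each), and Cyp2e1 fell by 1.13 ± 0.25 (SE, limma adjusted p = 0.00850), a 2.18-fold lower signal.

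Cyp1a2 (13077_at), the P450 of caffeine and aromatic amines, read 3.24, 3.59, 3.29, 3.10 and 3.67 in CDAA 1 to 5, against 5.18, 5.05, 4.07, 5.03 and 4.56 in Std 1 to 5. The groups did not overlap, and all CDAA values lay under the array median. Cyp1a2 fell by 1.40 ± 0.20 (limma adjusted p = 0.000790), 2.64-fold in signal, which can understate the change in transcript because the CDAA signal was not known to be above background. Slc1a2 (20511_at), the glutamate transporter of pericentral hepatocytes, had 3.52, 3.51, 3.06, 3.37 and 3.35 in CDAA 1 to 5, against 4.59, 4.52, 4.26, 4.10 and 4.14 in Std 1 to 5. It fell by 0.96 ± 0.13 (limma adjusted p = 0.000491), again with no overlap and with all CDAA arrays under the array median. Cyp2c29 (13095_at), a P450 that makes epoxides of fatty acids, had 3.12, 3.88, 3.79, 3.32 and 3.08 in CDAA 1 to 5, against 4.41, 4.22, 4.15, 4.51 and 4.63 in Std 1 to 5. It fell by 0.95 ± 0.17 (limma adjusted p = 0.00289) to values under the array median in each CDAA array. Close relatives of Cyp2c29 may share part of its probes.

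Rgn (19733_at), which encodes the calcium-binding gluconolactonase regucalcin, went the other way. Its values were 6.59, 6.87, 7.27, 6.12 and 6.64 in CDAA 1 to 5, against 6.19, 6.33, 5.57, 6.06 and 6.01 in Std 1 to 5, so only CDAA 4 lay within the range of Std. Rgn rose by 0.67 ± 0.20 (limma adjusted p = 0.0385). The call was lost when any single array other than CDAA 4 or Std 2 was left out, at changes of 0.52 to 0.81 over all 10 omissions, and it was lost with the replicate number as a block (adjusted p = 0.0622).

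The other 5 pericentral members did not pass. Glul (14645_at), glutamine synthetase, which captures ammonia that escaped urea synthesis, had 10.92, 11.02, 10.81, 11.26 and 10.96 in CDAA 1 to 5, against 11.00, 11.25, 11.23, 10.98 and 11.08 in Std 1 to 5. The difference was -0.11 ± 0.10 (limma adjusted p = 0.547), and the ranges overlapped almost fully. Oat, ornithine aminotransferase, differed by 0.09 ± 0.09, Axin2, a feedback inhibitor of the Wnt pathway, by -0.15 ± 0.16 (-0.0071 without CDAA 3), and the transcription factor Tbx3 by -0.23 ± 0.15. Glul, Oat, Axin2 and Tbx3 are also expressed by liver cells other than hepatocytes. Lect2, a secreted protein and known target of beta-catenin in hepatocytes, averaged 2.99 ± 0.37 with CDAA and 3.06 ± 0.33 with Std (SD, n = 5 each), under the array median on all arrays. The median change of the 10 pericentral members was -0.19, against -0.02 over all genes, and it was -0.95 over the 6 members without those 4.

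**Figure D2:**
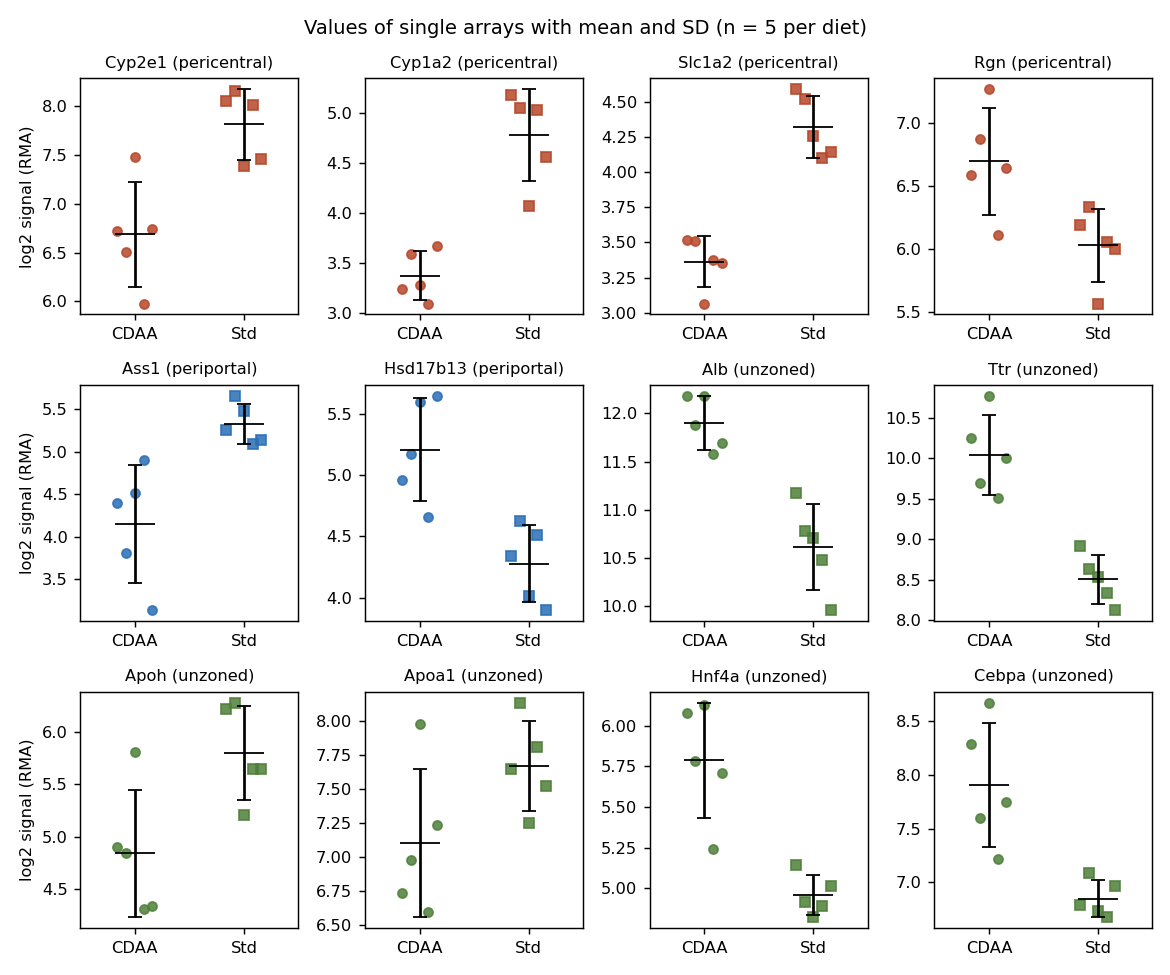
Log2 signal (y axis) of 12 members on each array, CDAA on the left of each panel and Std on the right, with mean and SD in black (n = 5). Each panel has its own y axis. The CDAA points lie under all Std points for Cyp1a2, Slc1a2 and Ass1, and above all Std points for Hsd17b13, Alb, Ttr, Hnf4a and Cebpa.

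Of the 8 measured periportal genes 1 rose and 1 fell, and 6 of the 8 differences were positive. Ass1 (11898_at), argininosuccinate synthase of the urea cycle, had log2 signals of 4.39, 3.80, 4.51, 4.90 and 3.13 in CDAA 1 to 5, against 5.25, 5.66, 5.48, 5.09 and 5.14 in Std 1 to 5. No CDAA array reached the range of Std, and 2 of them lay under the array median. Ass1 fell by 1.18 ± 0.28 (SE, limma adjusted p = 0.0119), 2.26-fold in signal. This enzyme is also made by endothelial cells and macrophages. Pan-endothelial markers averaged 10.14 to 11.19 in CDAA arrays and 11.40 to 11.56 in Std arrays, and 6 of 9 of them fell. Among 6 Kupffer cell markers 4 fell and none rose, and their mean was 7.64 to 8.46 in CDAA arrays and 8.45 to 9.62 in Std arrays. The part of these cells in the fall of Ass1 was not tested.

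None of the 3 other measured enzymes of the urea cycle passed. Cps1 (227231_at), carbamoyl phosphate synthetase, had 5.84, 5.58, 6.95, 5.18 and 4.65 in CDAA 1 to 5, against 5.14, 5.44, 4.70, 5.02 and 5.15 in Std 1 to 5. The CDAA arrays, from CDAA 5 to CDAA 3, enclosed all Std values. The change of 0.55 ± 0.34 did not pass (limma adjusted p = 0.330), and it was 0.22 without CDAA 3 and 0.0406 without CDAA 1 and CDAA 3. Asl, argininosuccinate lyase, differed by 0.38 ± 0.15 (limma adjusted p = 0.119), and Arg1, arginase, by 0.52 ± 0.21 (limma adjusted p = 0.115), which passed with the replicate number as a block (adjusted p = 0.0412) and without CDAA 5 (0.66). Both are also expressed by macrophages, and all 5 measured markers of recruited macrophages rose, their mean being 8.29 to 9.71 in CDAA arrays and 4.97 to 5.52 in Std arrays. Their part in the values of Arg1 and Asl was not tested.

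Hsd17b13 (243168_at), a lipid droplet enzyme, rose. It had 4.96, 5.17, 5.59, 4.66 and 5.64 in CDAA 1 to 5, against 4.34, 4.62, 4.01, 4.51 and 3.90 in Std 1 to 5, without overlap. The rise was 0.93 ± 0.20 (limma adjusted p = 0.00864), or 1.90-fold, and missed the threshold without CDAA 1, CDAA 3 and Std 3 (0.81, adjusted p = 0.0569).

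Pck1, the entry enzyme of gluconeogenesis, differed by 0.20 ± 0.28 and did not pass. CDAA 3 held 6.35 and its 4 fellow arrays 4.88 to 5.18, against 4.70 to 5.73 in Std, and without CDAA 3 the difference was -0.08. Hal, which degrades histidine, and Cyp2f2, a P450 of portal hepatocytes, differed by -0.08 ± 0.13 and 0.09 ± 0.24. Hal was under the array median on all arrays but CDAA 4, and Cyp2f2 on all 10. The median change of the 8 measured periportal members was 0.29, with 1 risen and 1 fallen. It rested on CDAA 3 in large part, being 0.0802 without that array and -0.0008 without CDAA 1 and CDAA 3.

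Among unzoned genes, transcripts of several abundant plasma proteins rose. Alb (11657_at), albumin, had log2 signals of 12.18, 11.88, 12.18, 11.58 and 11.69 in CDAA 1 to 5, against 11.17, 10.78, 10.70, 10.48 and 9.96 in Std 1 to 5. Every CDAA array lay above every Std array. Alb rose by 1.28 ± 0.20 (SE, limma adjusted p = 0.00138), a 2.44-fold higher signal, opposite to Cyp2e1 in the same RNA.

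Ttr (22139_at), transthyretin, which carries thyroid hormone and retinol-binding protein, had 10.25, 9.69, 10.77, 9.51 and 10.00 in CDAA 1 to 5, against 8.92, 8.63, 8.53, 8.33 and 8.12 in Std 1 to 5. Its rise of 1.54 ± 0.22 (limma adjusted p = 0.000791) was 2.90-fold. Trf (22041_at), the iron carrier transferrin, which macrophages also make, had 11.12, 10.61, 11.50, 10.33 and 10.65 in CDAA 1 to 5, against 9.53, 9.86, 9.66, 9.35 and 9.08 in Std 1 to 5. Trf rose by 1.35 ± 0.21 (limma adjusted p = 0.00136). Ahsg (11625_at), the calcification inhibitor fetuin-A, had 10.29, 9.56, 10.36, 9.35 and 9.69 in CDAA 1 to 5, against 9.32, 8.95, 8.71, 8.79 and 8.38 in Std 1 to 5. The gap between the diets was narrow, at 9.35 in CDAA 4 and 9.32 in Std 1. Ahsg rose by 1.02 ± 0.22 (limma adjusted p = 0.00733), and this missed the threshold without CDAA 1, CDAA 3 and Std 3 (0.68, adjusted p = 0.0567).

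Both transcription factors among the members, Hnf4a and Cebpa, rose. Hnf4a (15378_at), the nuclear receptor that maintains hepatocyte identity, had 6.08, 5.78, 6.13, 5.24 and 5.71 in CDAA 1 to 5, against 5.14, 4.92, 4.82, 4.89 and 5.01 in Std 1 to 5. It rose by 0.83 ± 0.15 (limma adjusted p = 0.00353), without overlap. Cebpa (12606_at), a factor of both hepatocytes and myeloid cells, had 8.29, 7.60, 8.67, 7.22 and 7.75 in CDAA 1 to 5, against 6.79, 7.09, 6.73, 6.67 and 6.96 in Std 1 to 5. Cebpa rose by 1.06 ± 0.23 (limma adjusted p = 0.00821) without overlap. Alb, Ttr, Trf, Ahsg, Hnf4a and Cebpa were all highest in CDAA 1 and CDAA 3 among CDAA arrays. These were also the CDAA arrays with the highest means of recruited macrophage markers (9.50 and 9.71) and of bile duct markers (8.23 and 8.03). The part of those cells in the 6 rises was not tested.

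Of the other plasma protein genes, Apoh fell and the rest did not pass. Apoh (11818_at), beta-2-glycoprotein I, had 4.91, 4.85, 5.81, 4.30 and 4.33 in CDAA 1 to 5, against 6.22, 6.28, 5.21, 5.65 and 5.65 in Std 1 to 5. CDAA 3 lay above 3 Std arrays and the other 4 CDAA arrays under all of them. Apoh fell by 0.96 ± 0.28 (limma adjusted p = 0.0367), a call lost when any single array other than CDAA 3 or Std 3 was left out, at changes of -1.20 to -0.83 over all 10 omissions.

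Apoa1 (11806_at), the main protein of high-density lipoprotein, had 6.74, 6.98, 7.98, 6.60 and 7.24 in CDAA 1 to 5, against 7.64, 8.13, 7.25, 7.81 and 7.52 in Std 1 to 5. Its difference of -0.57 ± 0.24 did not pass (limma adjusted p = 0.145), but did without CDAA 3 (-0.78) and without CDAA 1 and CDAA 3 (-0.73, adjusted p = 0.0437). Apoa2, of the same lipoprotein, differed by 0.31 ± 0.22, and by 0.0971 without CDAA 3. The 3 fibrinogen chain genes Fga, Fgb and Fgg, whose products join in 1 clotting protein, differed by 0.15 ± 0.25, -0.49 ± 0.20 and -0.05 ± 0.19, and none passed. Fgb passed without CDAA 3 (-0.62) or without Std 5 (-0.62).

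Enzymes of aromatic amino acid breakdown did not pass. Hpd, Tdo2 and Tat, which act on tyrosine and tryptophan, differed by 0.32 ± 0.16, 0.36 ± 0.19 and 0.70 ± 0.28. Tat (limma adjusted p = 0.116) passed with the replicate number as a block (adjusted p = 0.0407) and without Std 2 (0.92). The median change of the 15 unzoned members was 0.36, with 6 risen and 1 fallen. It was 0.24 without CDAA 3 and 0.19 without CDAA 1 and CDAA 3.

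Zones were then compared within each array, which removes an overall difference in hepatocyte RNA between arrays if all these genes share it. For each array the members' deviations from their Std means were taken, and their median is given per zone. Pericentral medians were -0.24, -0.10, -0.40, -0.25 and -0.46 in CDAA 1 to 5, against 0.10, 0.14, -0.16, 0.07 and -0.05 in Std 1 to 5. Unzoned medians were 0.52, 0.52, 1.17, 0.03 and 0.28 in CDAA 1 to 5, against 0.26, 0.20, -0.12, -0.11 and -0.32 in Std 1 to 5. In every CDAA array the pericentral median was below the unzoned median, which rests on the same members' changes given above. Both orders occurred among Std arrays, where medians lie around 0 because deviations were taken from the Std means. Periportal medians were 0.11, 0.20, 0.92, 0.23 and -0.27 in CDAA 1 to 5, against 0.02, 0.34, -0.03, -0.05 and -0.25 in Std 1 to 5, and thus overlapped between diets.

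**Figure D3:**
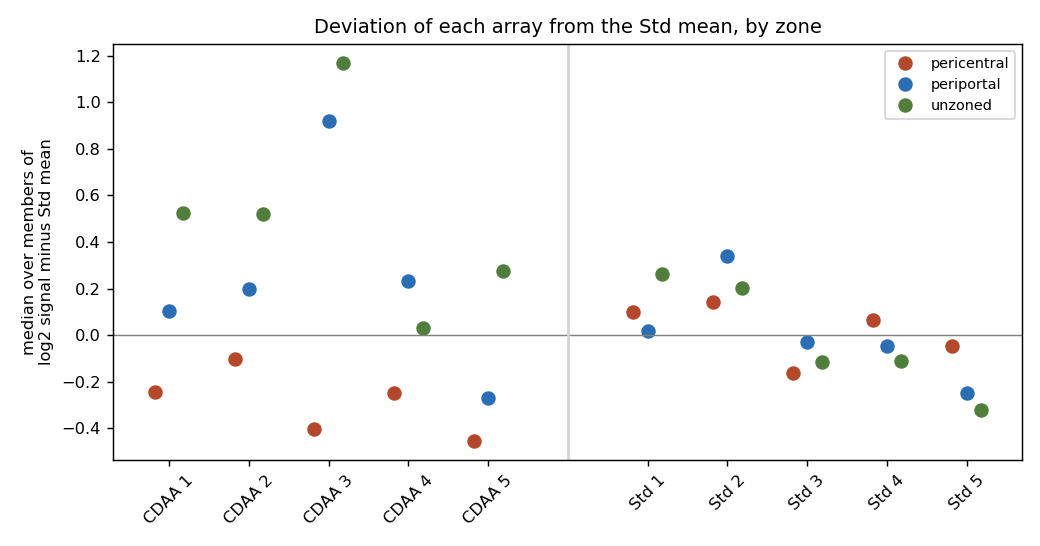
Median over the members of a zone list of log2 signal minus the gene's Std mean (y axis), for each array (x axis), CDAA on the left and Std on the right. CDAA 3 holds both the highest unzoned median, 1.17, and a pericentral median of -0.40.

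The mean of pericentral members minus that of periportal members ranged from 0.08 to 0.99 in CDAA arrays and from 1.02 to 1.31 in Std arrays, a diet difference of -0.60. Pericentral minus unzoned means ranged from -2.60 to -1.75 in CDAA arrays and from -1.36 to -1.003 in Std arrays, a diet difference of -0.88. Neither pair of ranges overlapped. Periportal minus unzoned means did overlap, at -3.01 to -2.15 in CDAA arrays and -2.58 to -2.31 in Std arrays. These list values are descriptions, since the members were chosen with earlier results known.

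Single pairs of genes were chosen after their values were seen. Their shifts follow from the changes of the single genes given above, and the pairs add only the spread between arrays. The log2 difference between the Alb and Cyp2e1 signals was 5.22 ± 0.38 in CDAA arrays and 2.81 ± 0.39 in Std arrays (SD, n = 5 each), a shift of 2.41. Between Alb and Apoh, both plasma protein genes, it was 7.06 ± 0.40 in CDAA arrays and 4.82 ± 0.46 in Std arrays. For Alb and Ttr, which both rose, it was 1.86 ± 0.31 in CDAA arrays and 2.11 ± 0.16 in Std arrays, and the arrays overlapped. Between Rgn and Cyp2e1, both pericentral, it was 0.01 ± 0.24 in CDAA arrays and -1.78 ± 0.19 in Std arrays.

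**Figure D4:**
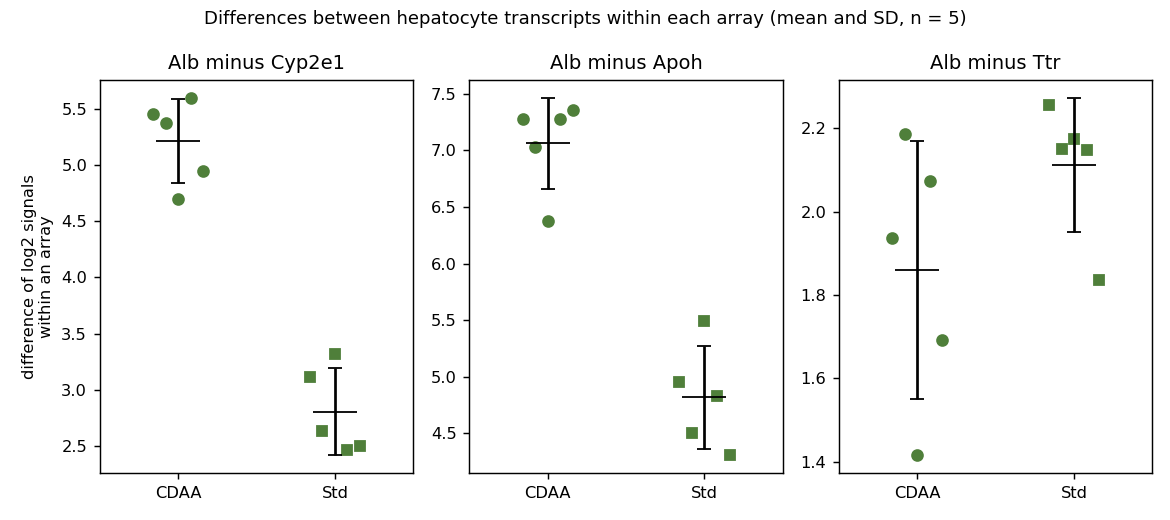
Difference of the log2 signals of 2 genes within each array (y axis), CDAA left and Std right, with mean and SD in black (n = 5). Levels of different probe sets are not comparable, so that only the shift between diets is of use. Alb minus Cyp2e1 and Alb minus Apoh are higher in all 5 CDAA arrays than in any Std array, and Alb minus Ttr overlaps.

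Within a diet the unzoned members shared their high and low arrays. CDAA 4 held the lowest CDAA value of all 15 unzoned members and CDAA 3 the highest of 13, whereas over all genes CDAA 4 was lowest for 18.2% and CDAA 3 highest for 23.8%. Among Std arrays Std 5 was lowest for 8 of the 15 and Std 3 for 6. The periportal members were highest in CDAA 3 for 5 of 8 and lowest in CDAA 5 for 6 of 8. The full pericentral list had no such order, CDAA 3 being highest for 4 of 10 and lowest for 4 of 10. Lowest there were Slc1a2 and also Glul, Axin2 and Tbx3, which are expressed outside hepatocytes too, as is Oat, highest there. Over the 6 pericentral members without Glul, Axin2, Tbx3 and Oat, the mean was highest in CDAA 3 (4.72) and lowest in CDAA 4 (4.14). The unzoned mean had its extremes in the same arrays. Single genes among the 6 did not all share this order: Slc1a2 was lowest in CDAA 3 (3.065), Cyp1a2 highest in CDAA 5 (3.673) and Cyp2c29 highest in CDAA 2 (3.875).

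When the unzoned mean of each array entered the fit as a covariate, Cyp2e1, Cyp1a2, Cyp2c29 and Slc1a2 again fell, at -1.71, -1.56, -1.02 and -0.96 (limma adjusted p = 0.000181 to 0.0218). Alb, Ttr and Trf again rose, by 0.89, 1.01 and 0.85, and Apoh fell by 1.61. Apoa1 and Fgb now fell too, by 1.04 and 0.92, although each of these unzoned genes is part of the covariate. Rgn (0.26), Ass1 (-1.25), Hsd17b13 (0.59), Ahsg (0.53), Hnf4a (0.54) and Cebpa (0.57) did not pass. The unzoned mean moved with the diet, though its ranges overlapped. With a pan-endothelial covariate, the mean of those markers, only Cyp2e1 (-1.88, limma adjusted p = 0.0148) and Apoh (-1.80, limma adjusted p = 0.0411) passed among the 33 members. The pan-endothelial mean did not overlap between the diets, so that fit can hardly tell the diet from the markers.

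Lists of further hepatocyte genes were examined beside the members. The share that passed was 46.2% of further pericentral genes, 40.0% of plasma protein genes, 54.5% of transcription factors and 33.3% of bile acid genes. It was 33.3% of fetal, 25.0% of further periportal, 14.3% of Wnt/beta-catenin target and 8.33% of acute phase genes, against 16.6% of all genes. That last share includes many dim genes: 4341 of 12352 passed where genes of below-median mean signal were left out. Of 13 measured further pericentral genes, 4 fell and 2 rose, with a median change of -0.18. Cyp2c37, a P450 related to Cyp2c29, fell by 1.07 ± 0.23 (SE, limma adjusted p = 0.00750). Both rises were large: Aldh1a1, a retinaldehyde dehydrogenase, rose by 2.19 ± 0.21 and Gstm3, a glutathione transferase, by 1.87 ± 0.40. Aldh1a1 is expressed by other cell types as well.

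Of 7 measured Wnt/beta-catenin target genes only Nkd1, a feedback inhibitor that endothelial cells express too, passed. It had 5.84, 6.38, 4.93, 6.29 and 6.63 in CDAA 1 to 5, against 7.53, 7.23, 7.16, 7.31 and 7.29 in Std 1 to 5. Nkd1 fell by 1.29 ± 0.26 (limma adjusted p = 0.00541). The list's median was 0.06 and its mean -0.07. The mean of the endothelial ligands Wnt2, Wnt9b and Rspo3 was 7.26 to 8.69 in CDAA arrays and 8.75 to 8.87 in Std arrays, and Wnt9b alone passed (-1.08). The ligands' mean change was -0.73, against -0.71 for the 9 pan-endothelial markers, and both lists were lowest in CDAA 3 and CDAA 1.

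Among 12 measured further periportal genes 3 rose and none fell, with a median change of 0.19. Fbp1, fructose-1,6-bisphosphatase of gluconeogenesis, rose by 1.70 ± 0.23 (limma adjusted p = 0.000527) and the ornithine carrier Slc25a15 by 0.59 ± 0.11. Cdh1, E-cadherin of all epithelia, rose by 3.07 ± 0.35. Fbp1 is also found in macrophages and Cdh1 in bile duct cells. All 6 bile duct markers rose, their mean being 7.32 to 8.23 in CDAA arrays and 4.55 to 5.69 in Std arrays, highest in CDAA 1 and in Std 1. Their part in the rises of Cdh1 and of the unzoned members was not tested.

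The 20 measured further plasma protein genes went both ways, with 5 risen, 3 fallen and a median of 0.47. Ambp, precursor of alpha-1-microglobulin and bikunin, had 9.98, 9.50, 10.07, 9.12 and 9.58 in CDAA 1 to 5, against 7.61, 6.70, 7.60, 6.81 and 5.95 in Std 1 to 5. Ambp rose by 2.72 ± 0.30 (limma adjusted p = 0.000138). Itih2, a heavy chain that is joined to bikunin, rose by 2.07 ± 0.24. Among Std arrays Ambp and Itih2 were highest in Std 1 and Std 3, as was the bile duct marker mean (5.693 and 5.465). The unzoned mean was highest in Std 2 and Std 1 (7.309 and 7.285). The part of bile duct cells in the rises of Ambp and Itih2 was not tested. Serpina1d, an alpha-1-antitrypsin gene, had 4.77, 5.56, 5.62, 4.41 and 4.90 in CDAA 1 to 5, against 8.05, 7.37, 6.47, 7.38 and 7.06 in Std 1 to 5. It fell by 2.22 ± 0.29 (limma adjusted p = 0.000449). Its close paralogue Serpina1e fell by 0.94, whereas Serpina1b differed by 0.22 and did not pass. Signals of single Serpina1 copies are uncertain because their sequences are alike.

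Of 11 measured further hepatocyte transcription factors 6 rose and none fell, at a median of 0.53. Prox1, which also acts in lymphatic endothelium, rose by 1.91 ± 0.23, Onecut1 (HNF6) by 1.51 ± 0.26 and Foxa1 by 1.38 ± 0.12 (limma adjusted p = 4.19e-05). Onecut1 and Foxa1 are shared with bile duct cells. Of 9 bile acid synthesis and transport genes 3 fell and none rose, and the other 6 did not pass. The median was -0.28, with 3 of the 9 differences positive, and 6 of these genes were under the array median on all arrays. The hepatocyte uptake carriers Slco1b2 and Slc10a1 fell by 0.85 ± 0.17 and 0.78 ± 0.19 to means of 2.99 and 2.91 with CDAA, against 3.84 and 3.69 with Std. Slc27a5, which couples bile acids to coenzyme A, fell by 0.58 ± 0.15. All 6 of these means were under the array median.

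In the acute phase list Crp, C-reactive protein, rose by 2.06 ± 0.28 (limma adjusted p = 0.000553), and the other 11 genes did not pass. Among Std arrays Crp was highest in Std 3 and Std 1 (6.03 and 5.87), where the bile duct marker mean was also highest. The part of bile duct cells in this rise was not tested. The list's median was -0.29 and its mean 0.35, so the signs differ. Std 3 stood apart there: Saa1 read 6.25 and Saa2 6.17, against 2.08 to 2.83 and 2.37 to 2.69 in the other Std arrays. Lcn2, which neutrophils make too, did not pass at 2.49, with 9.66 to 10.49 in CDAA arrays, against 12.90 in Std 3 and 5.20 to 6.69 in the other Std arrays. Hp, haptoglobin, did not pass at 1.15, with 6.61 to 8.50 in CDAA arrays, against 9.38 in Std 3 and 4.87 to 5.87 in the other Std arrays. Both thus lay above all Std arrays but Std 3. The 4 neutrophil markers averaged 10.12 in Std 3, against 4.92 to 5.38 in the other Std arrays. Of 6 fetal and injured hepatocyte genes, Cd24a rose by 2.72 ± 0.45 and the imprinted H19 by 0.55 ± 0.16, and the median was 0.33. Afp, alpha-fetoprotein, differed by 0.07. Cd24a is a surface protein of bile duct cells and leukocytes too, and it was 8.45 in Std 3 and 5.57 to 6.27 in the other Std arrays.

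**Figure D5:**
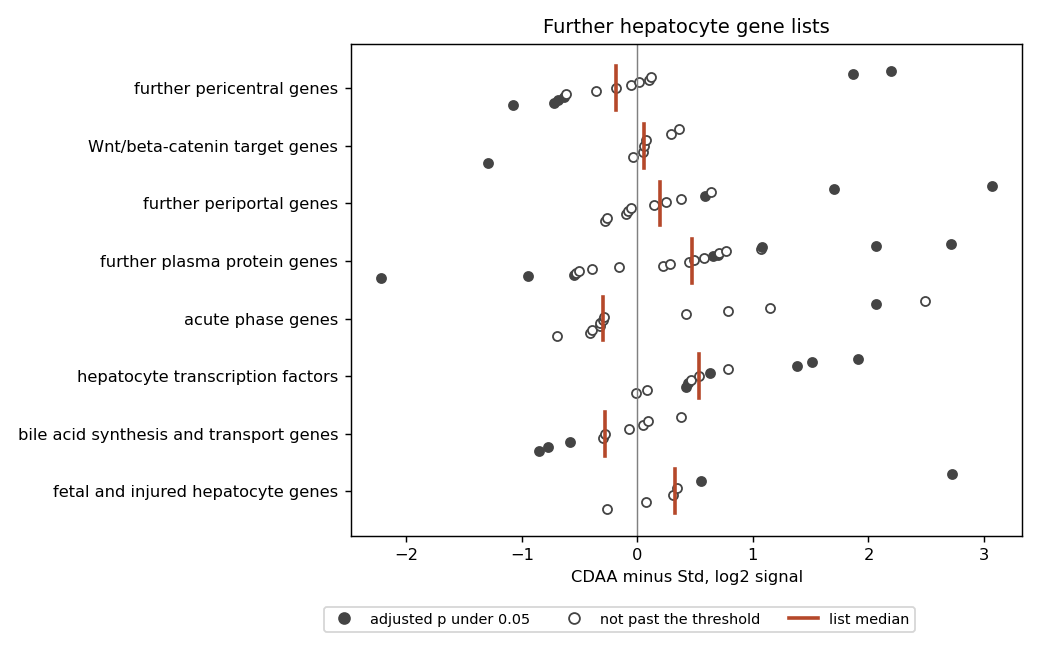
Change in log2 signal, CDAA minus Std (x axis), of each measured gene of 8 further lists, with the list median as a line. Points are spread vertically for legibility, and filled points passed an adjusted p of 0.05. Filled points lie on both sides of 0 among further pericentral and plasma protein genes, on the right only among transcription factors, and on the left only among bile acid genes.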

How the data were processed

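Per the labels' protocols, RNA of CD146-bound liver cells was labelled with biotin and hybridised to Affymetrix arrays, 1 array for each pool of 3 mice, 5 per diet. The deposited values are log2 signals that the authors made by RMA (per the submitters' processing notes). The RMA version is not given in the sources used here. RMA forces the arrays to 1 distribution, so a change in total RNA cannot be seen. Of 25428 probe sets, 24705 had 1 gene symbol in the platform annotation and 723 none. The brighter probe set was kept where a gene had several, leaving 24704 genes. The CDAA minus Std difference was fitted with limma 3.58.1 in R 4.3.3 (lmFit and eBayes) without a block, and p-values were adjusted by Benjamini-Hochberg over all genes. Members and lists were chosen with earlier results of these data known. Members were named by symbol, and up to 3 genes of each further list by the size of change among those past the threshold; Serpina1b, Serpina1e, Saa1, Saa2, Lcn2, Hp, Afp and Wnt9b were named after their values were seen. Promoters came from RefSeq on GRCm38.p6. No batch was given in the labels. Arrays carry no read depth, and their number limits the precision. Alternatives tried were single arrays left out, the replicate number as a block, array weights, another normalization, filters on dim genes, and covariates.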

Additional observations from a re-analysis of the deposited data

Results flagged for a closer look

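The groups of 5 arrays looked at numbered 110, 1 per diet for each gene and for the mean of each zone list. In 4 of them an array's gap to its neighbour exceeded Dixon's critical value of 0.71 of the group's range. Chance alone flags about 1 in 20 such groups. Pck1 read 6.35 in CDAA 3, against 4.88 to 5.18 elsewhere in that diet group. Axin2 read 4.07 in Std 3 and 4.36 to 4.43 in the other Std arrays. Fga read 3.83 in Std 5 and 4.86 to 5.07 in the other Std arrays. Cd24a read 8.45 in Std 3 and 5.57 to 6.27 in the other Std arrays. Std 3 was also the array with the high neutrophil and acute phase values, and the part of these in its Axin2 and Cd24a values was not tested.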

How the results depend on the processing

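The number of genes changed was 4106, and 2956 to 4572 when single arrays were left out. It was 1213 with the unzoned mean as a covariate and 278 with the pan-endothelial mean, and 2612 without CDAA 1 and CDAA 3. Without CDAA 1, CDAA 3 and Std 3, chosen after seeing the data, it was 2689. With the bile duct marker mean as a covariate, also added later, limma called 0 genes and 991 had an unadjusted p under 0.05. Both the bile duct mean and the pan-endothelial mean separate the diets. With the replicate number as a block 4178 genes changed. Deviations from the diet means correlated at 0.02 to 0.25 between same-numbered arrays and at -0.17 to 0.17 between others. CDAA 2, CDAA 3 and CDAA 4 correlated best with their own number, and CDAA 1 and CDAA 5 did not. The numbers are shared by title only, so they were not taken as pairs, and the block is given as an alternative. When single arrays were left out, 4 to 5 pericentral members passed (median change -0.24 to -0.18), 2 to 3 periportal (0.08 to 0.37) and 6 to 9 unzoned (0.24 to 0.46). With the unzoned mean as a covariate 0 periportal members passed (median -0.0875). With the pan-endothelial mean 1 pericentral (median -0.32), 0 periportal (-0.0646) and 1 unzoned member (-0.0233) passed. Without CDAA 1 and CDAA 3 the periportal median was -0.0008 and the unzoned median 0.19. With Std 3 left out too, 1 periportal member passed, and these medians were -0.0226 and 0.10. Without members expressed outside hepatocytes the pericentral median was -0.95 and 1 periportal member passed. Single members were not examined under the bile duct covariate. In the other settings no sign reversed among the 14 members past the threshold. Among the others the sign turned with the unzoned mean as a covariate for Glul (0.0084), Oat (-0.0526), Axin2 (0.12), Cps1 (-0.13), Pck1 (-0.27), Cyp2f2 (-0.11), Apoa2 (-0.19) and Fga (-0.32). With the pan-endothelial mean it turned for Glul (0.0916), Oat (-0.14), Axin2 (0.43), Cps1 (-0.60), Hal (0.0375), Pck1 (-0.61), Cyp2f2 (-0.17), Apoa2 (-0.52), Fga (-0.32), Tdo2 (-0.0466) and Tat (-0.0233). Without CDAA 1 and CDAA 3 it turned for Axin2 (0.0920), Pck1 (-0.0423), Cyp2f2 (-0.0741) and Fga (-0.0740). Without CDAA 1, CDAA 3 and Std 3 it turned for Glul (0.0013), Axin2 (0.0281), Cps1 (-0.0576), Pck1 (-0.0213), Cyp2f2 (-0.0240) and Apoa2 (-0.0575). Array weights turned Cyp2f2 (-0.0051). Leaving out single arrays gave -0.18 to 0.0748 for Lect2, -0.0776 to 0.36 for Pck1, -0.0568 to 0.25 for Cyp2f2, -0.0809 to 0.30 for Fga and -0.18 to 0.0741 for Fgg. The cause of these shifts was not tested. Signals under the array median limit Cyp1a2, Cyp2c29, Slc1a2, Lect2, Hal and Cyp2f2.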
